A study of Drosophila melanogaster with 7 samples.

Results

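Midguts of adult flies labelled as carrying schnurri (shn) RNA interference and 1 mutant copy of puckered (puc) were compared with control midguts across all genes. The comparison rests on 5 of the 7 RNA-seq libraries of the series, chosen by genotype. The control group has the genotype esgts> w1118 (n = 3), and the other group has esgts> Shn-RNAi,PucE69/+ (n = 2). Every fly carried the esgts driver, a temperature-sensitive Gal4 system under escargot control that acts in intestinal stem cells and their immediate daughters. Crosses were kept at 18 °C, adults were moved to 29 °C to start the RNAi, and the midguts were taken 7 days later without crop, Malpighian tubules or hindgut. The remaining group, esgts> Shn-RNAi with both puc copies intact by its label (n = 2), entered the model for the spread and one direct comparison. The series title calls Shn-RNAi a tumor and Shn-RNAi with the puc mutation a severe tumor.

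The control differs from the other group in the RNAi construct, in the puc allele and in any difference of strain background between the crosses, and these cannot be told apart. Separate flies or pools are not stated for the libraries in the labels, and the p-values therefore cover the spread among libraries alone.

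Schnurri is a nuclear zinc-finger protein that works with the Smads Mad and Medea downstream of BMP ligands, chiefly to repress target genes such as brinker. Puckered is a phosphatase that dephosphorylates the Jun kinase and is itself induced by it, so it closes a negative feedback loop. In the fly midgut, stem cells divide and give rise to absorptive enterocytes and hormone-producing enteroendocrine cells. JAK-STAT, EGFR and JNK signals raise stem cell division after damage.

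Total counts were 14665728 to 18490676 per control library, 11552527 to 14688825 per Shn-RNAi puc library and 14673142 to 15716078 per Shn-RNAi library. Levels below are CPM, each count divided by the scaled library total (TMM scaling). A log2 change is that of Shn-RNAi puc minus control, with the approximate standard error (SE) of the fit. A gene was called higher or lower at an adjusted p under 0.05 in edgeR's quasi-likelihood test over 9076 genes. Because whole midguts were sequenced, a lower level cannot be told apart between fewer cells of a type and less RNA per cell.

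Shn-RNAi puc midguts had 795 genes higher than control (8.76% of those tested) and 567 lower (6.25%). By at least 2-fold, 474 were higher (5.22%) and 296 lower (3.26%). The libraries of the groups did not overlap for 2591 genes that stood higher (28.5%) and 2394 that stood lower (26.4%). The median log2 change over all tested genes was 0.02. The number of calls depended on which libraries were kept: leaving out control library 1 gave 299 higher and 141 lower genes, and leaving out control library 3 gave 392 and 196. Leaving out control library 2 gave 552 and 455, and leaving out Shn-RNAi library 1 or 2, which only inform the spread, gave 1033 and 839 or 1022 and 837. Without Shn-RNAi puc library 1 the counts were 197 and 92, and without Shn-RNAi puc library 2 they were 139 and 33. Of the 1362 genes called in either direction, 166 were called in the same direction without Shn-RNAi puc library 2 and 278 without Shn-RNAi puc library 1. Genes below are said to hold in a given number of refits, which each left out 1 of the 7 libraries. In 2 of these refits the library left out was a Shn-RNAi one, outside the groups compared, and the number of calls rose. A call that held in 2 of 7 refits may therefore have been lost without each of the libraries compared.

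Long transcripts stood higher relative to short ones in some libraries. Genes were put into 4 classes by transcript length. The longest class exceeded the shortest by a median log2 value of -0.32, 0 and -0.41 in the control libraries, and by 0.08 and 0.33 in the Shn-RNAi puc libraries. Among called genes the shortest class held 122 that rose and 275 that fell, and the longest held 278 and 27. Taking out each library's length trend gave 999 rises and 755 falls, and 1224 of the 1362 genes were again called in the same direction. Under this setting several gene lists had other counts or medians, and the larger of these moves are given with the lists.

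**Figure D1:**
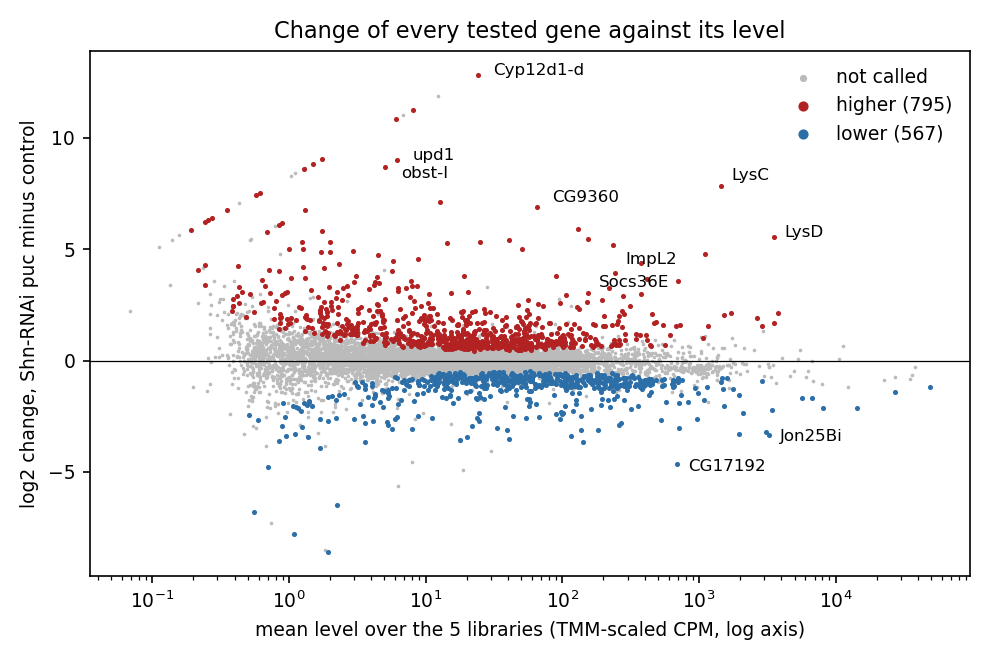
Each point is 1 of the 9076 tested genes, with its mean level over the 5 libraries in TMM-scaled CPM on a log axis and its log2 change (Shn-RNAi puc minus control) on the vertical axis. Red points are the 795 genes called higher and blue points the 567 called lower. The largest rises, among them Cyp12d1-d and upd1, had no or almost no count in control, and the abundant genes with large changes include the lysozymes LysC and LysD above and the protease gene Jon25Bi and CG17192 below.

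The targeted gene shn (2R 11159086 to 11217394) was not lower. Control libraries had 42.5, 47.4 and 42.4 CPM of shn, against 66.5 and 69.7 CPM in Shn-RNAi puc. The groups did not overlap, and the change of 0.63 (SE 0.15, edgeR adjusted p = 0.031) was a call that held in 2 of 7 refits and not with the length trend taken out (adjusted p = 0.062). RNAi is confined to cells with an active driver, so shn counts of whole midguts do not check the label. The gene puc (3R 8105332 to 8122294) is mutant in 1 copy by the label and is not a target of the RNAi. It had 72.3, 70.2 and 82.2 CPM in control and 86.5 and 88.3 CPM in Shn-RNAi puc. Its change of 0.22 (SE 0.14, edgeR adjusted p = 0.34) did not pass, and its counts cannot tell a mutant copy from an intact one. All directions below are those of libraries named by their labels.

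JAK-STAT genes had 8 of 13 tested members higher and none lower, with a median change of 0.89. The pathway runs from cytokines of the Unpaired family through the receptor Domeless and the kinase Hopscotch to the transcription factor Stat92E. All of the cytokine genes rose. The gene upd1 (X) had 0, 0.0553 and 0 CPM in control and 14.4 and 16.5 CPM in Shn-RNAi puc. A single upd1 read lay behind the control values, and the ratio of 687 had a 95% counting interval of 123 to 27200. The gene upd3 had 3.22, 4.26 and 1.83 CPM in control and 36.1 and 50.8 CPM in Shn-RNAi puc (log2 change 3.78, SE 0.31, edgeR adjusted p = 0.00078). Both groups were clear of each other for upd1 and upd3, and both calls held in 7 of 7 refits. For upd2 the levels were 0.143, 0.443 and 0.159 CPM against 2.92 and 7.98 CPM (4.33, SE 0.69, adjusted p = 0.0079), a call that held in 6 of 7 refits.

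The JAK-STAT receptor and feedback genes were also higher. The receptor gene dome rose by 1.67 (SE 0.22, edgeR adjusted p = 0.0037), from 46.1, 50.8 and 30.4 CPM to 134 and 136 CPM. Socs36E, a feedback inhibitor and common readout of the pathway, had 46.1, 47.1 and 27.3 CPM in control and 266 and 386 CPM in Shn-RNAi puc (3.02, SE 0.28, adjusted p = 0.0011). Neither gene overlapped between the groups, and the calls held in 6 and 7 of 7 refits. Stat92E rose by 0.76 (SE 0.21, adjusted p = 0.049), which held in 2 of 7 refits and not with RLE scaling (adjusted p = 0.055) or without a filter on low counts (0.068). The kinase gene hop, with a change of 0.17, was not called. The list had 5 members higher without Shn-RNAi puc library 1 and 4 without Shn-RNAi puc library 2.

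EGFR pathway genes had 7 of 20 members higher and none lower, with a median change of 0.63. The members called were the ligand gene vn, rho, stet and S, whose products release or carry ligands, the GTPase gene Ras85D (0.65, edgeR adjusted p = 0.024), edl and Mkp3. Rhomboid, encoded by rho, is the protease that releases active EGFR ligands. It had 2.22, 2.1 and 1.19 CPM in control and 11.8 and 25.9 CPM in Shn-RNAi puc (log2 change 3.33, SE 0.42, edgeR adjusted p = 0.0035). The ligand gene vn, which needs no such protease, went from 2.22, 2.88 and 1.35 CPM to 8.44 and 8.9 CPM (1.99, SE 0.3, adjusted p = 0.006). The groups were separate for both genes, and the calls held in 7 and 5 of 7 refits. The feedback phosphatase gene Mkp3 rose by 1.8 (SE 0.16, adjusted p = 0.00097), from 9.96, 9.79 and 10.3 CPM to 29.1 and 40.7 CPM. The gene edl, whose product regulates ETS-domain transcription factors, rose by 2.46 (SE 0.22, edgeR adjusted p = 0.00095). Its levels went from 3.22, 2.82 and 3.82 CPM to 16.2 and 19.9 CPM. Mkp3 and edl held in 7 of 7 refits. The receptor gene Egfr itself had a change of 0.01 and was not called. The other ligand genes spi (0.6), Krn (0.52) and grk (0.76) were not called either. Nor were the feedback inhibitor genes aos (0.72) and sty (-0.07) or the transcription factor gene pnt (0.68). The list had 4 members higher without Shn-RNAi puc library 1 and 3 without Shn-RNAi puc library 2.

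JNK pathway genes and targets had 9 of 19 members higher and none lower, with a median change of 0.44. They were the receptor gene grnd, the kinase gene msn, which acts upstream of JNK, both AP-1 subunit genes and the targets cher, Gadd45, Mmp1, hid and rpr. The TNF receptor gene grnd rose by 2.08 (SE 0.33, edgeR adjusted p = 0.0072), from 2.29, 1.83 and 2.15 CPM to 5.65 and 12.1 CPM. The kinase gene msn went from 76.9, 86.5 and 69.8 CPM to 130 and 145 CPM (0.82, SE 0.16, adjusted p = 0.016; held in 3 of 7 refits). The AP-1 subunit genes kay and Jra rose by 0.94 (SE 0.2, adjusted p = 0.02) and 0.74 (SE 0.16, adjusted p = 0.021). The actin cross-linker filamin, encoded by cher, went from 46.4, 57 and 36.1 CPM to 210 and 289 CPM (2.42, SE 0.23, adjusted p = 0.0011). The stress-response gene Gadd45 went from 12.6, 13.1 and 13.5 CPM to 30.7 and 30.6 CPM (1.23, SE 0.15, adjusted p = 0.0029). For cher, Gadd45 and grnd no Shn-RNAi puc library reached down to a control library. The calls of cher and Gadd45 held in 7 of 7 refits, that of grnd in 6 and that of kay in 3. The other kinase genes of the list, bsk (0.02), hep (0.19), slpr (0.18), Tak1 (-0.03) and Mkk4 (0.05), and the TNF ligand gene egr (-0.23), were not called. The JNK-induced gene puc, also a member and mutant in 1 copy here by the label, was not called (0.22, edgeR adjusted p = 0.34). The list had 3 members higher without control library 1, 4 without control library 3, 3 without Shn-RNAi puc library 1 and 2 without Shn-RNAi puc library 2.

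BMP pathway genes had 8 of 17 members higher and none lower, with a median change of 0.48. The highest rises were in extracellular modulators. Short gastrulation, encoded by sog, binds BMP ligands outside the cell, and its level went from 2.58, 3.93 and 2.87 CPM to 12.7 and 20 CPM (log2 change 2.37, SE 0.25, edgeR adjusted p = 0.0019). Crossveinless 2, encoded by cv-2, is another BMP-binding protein, and its level went from 6.59, 7.75 and 6.85 CPM to 25.8 and 27.8 CPM (1.92, SE 0.16, adjusted p = 0.0008). The repressor gene brk, which BMP signalling silences through Schnurri in other fly tissues, had 12, 12.6 and 11.6 CPM in control and 23.9 and 26.3 CPM in Shn-RNAi puc (1.06, SE 0.14, adjusted p = 0.0037). For these 3 genes the groups did not overlap and the calls held in 7 of 7 refits. Of the ligands, gbb rose by 1.27 (SE 0.25, adjusted p = 0.017) and dpp by 0.9 (SE 0.2, adjusted p = 0.024). The dpp levels of 7.02, 7.75 and 8.92 CPM in control lay below the 13.8 and 15.7 CPM in Shn-RNAi puc, but the call held in 3 of 7 refits and not with the length trend taken out (adjusted p = 0.087). The Smad gene Mad rose by 1.12 (SE 0.22, adjusted p = 0.015), and the receptor genes tkv (0.23), put (0.16) and sax (0.43) were not called. The inhibitory Smad gene Dad was not called either (0.48, edgeR adjusted p = 0.22). The list had 3 members higher without control library 1, 4 without Shn-RNAi puc library 1 and 3 without Shn-RNAi puc library 2. It had 6, with a median of 0.3, once the length trend was removed.

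Wingless pathway genes had 4 of 16 members higher and none lower, 3 of them Wnt ligand genes. The gene wg had 0.573, 0.387 and 0.239 CPM in control and 1.69 and 1.41 CPM in Shn-RNAi puc (log2 change 1.93, SE 0.43, edgeR adjusted p = 0.024). Wnt4 rose by 1.24 (adjusted p = 0.027) and Wnt5 by 1.67 (adjusted p = 0.013), and Apc, which encodes a scaffold of the complex that degrades beta-catenin, rose by 1.56 (adjusted p = 0.0085). The calls of wg and Wnt4 held in 3 of 7 refits and those of Wnt5 and Apc in 6. The pathway target fz3, with a change of -0.48, was not called. The list had 2 members higher without control library 3, 2 without Shn-RNAi puc library 1 and none without Shn-RNAi puc library 2, and its median of 0.32 was 0.15 with the length trend taken out. Hippo genes had 3 of 13 members higher, the transcription factor sd (0.57), the upstream regulator kibra (0.61) and the inhibitor of apoptosis Diap1 (0.65). These Hippo calls were all lost without any 1 library of the groups compared, and with the length trend taken out 1 of 13 remained. Notch genes had 1 of 12 higher (8.33%, against 8.76% over all genes). It was the glycosyltransferase gene fng (1.76, SE 0.36, edgeR adjusted p = 0.017), which was not called without control library 1 or without either Shn-RNAi puc library.

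Genes of secreted factors reported from fly tumours had 8 of 12 members higher and none lower, with a median change of 1.32; upd2, upd3 and Mmp1 also sit in other lists. ImpL2, a secreted protein that binds and sequesters insulin-like peptides, had 39, 40.6 and 28.7 CPM in control and 435 and 664 CPM in Shn-RNAi puc. That change of 3.93 (SE 0.33, edgeR adjusted p = 0.0008) left the groups far apart and held in 7 of 7 refits. The Toll ligand gene spz went from 1.36, 1.44 and 0.876 CPM to 6.3 and 6 CPM (2.3, SE 0.28, adjusted p = 0.003), which also held in 7 of 7. The PDGF/VEGF-like genes Pvf1 (19, 23.4 and 8.52 CPM against 40 and 47.8 CPM, adjusted p = 0.036) and Pvf2 (0.501, 1.22 and 0.717 CPM against 2.66 and 3.25 CPM, adjusted p = 0.021) rose by 1.36 and 1.82. Their calls held in 2 and 3 of 7 refits. The list had 4 members higher without control library 1, 4 without Shn-RNAi puc library 1 and 3 without Shn-RNAi puc library 2.

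In insulin signalling 4 of 13 members were higher and none lower. Beside ImpL2 these were InR, the insulin receptor gene, Thor, which encodes the translation inhibitor 4E-BP, and Pi3K92E, the catalytic subunit of phosphatidylinositol 3-kinase. InR went from 9.1, 11.1 and 6.85 CPM to 33.1 and 48.6 CPM (log2 change 2.17, SE 0.23, edgeR adjusted p = 0.0019). Thor went from 206, 180 and 207 CPM to 971 and 719 CPM (2.09, SE 0.29, adjusted p = 0.0046). InR and Thor are known targets of the transcription factor FOXO, which insulin signalling holds in check. Both were higher in each Shn-RNAi puc library than in any control library, and the calls held in 7 and 6 of 7 refits. The call of Pi3K92E (0.83, adjusted p = 0.011) held in 5.

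**Figure D2:**
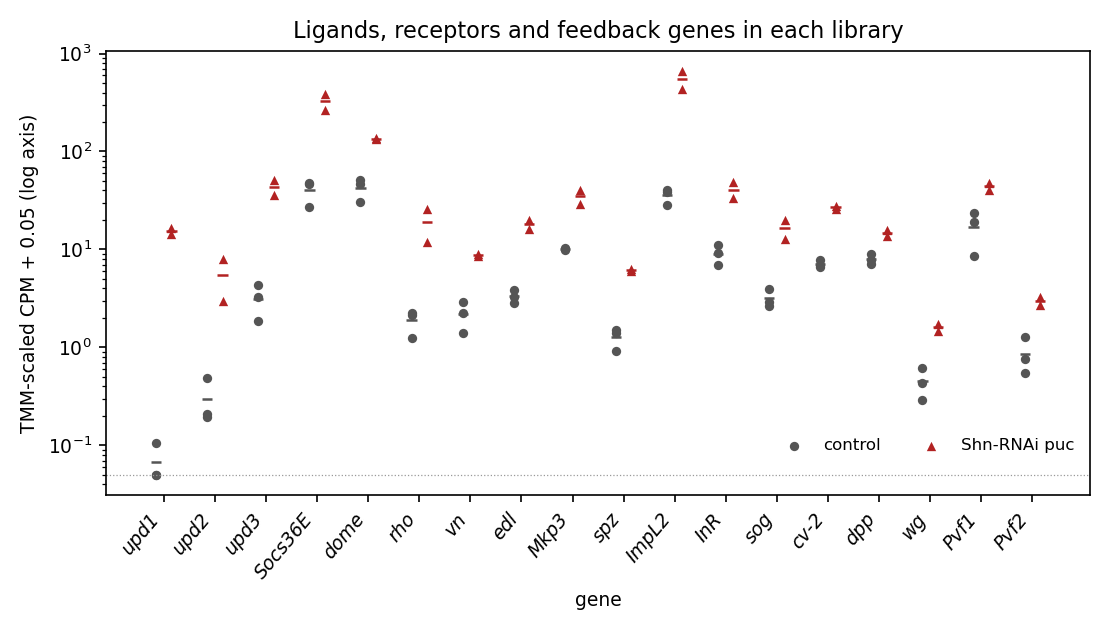
Points give the level of 18 genes of ligands, receptors, modulators and feedback inhibitors in each library, as TMM-scaled CPM plus 0.05 on a log axis, and short bars give the group means. Grey circles are the 3 control libraries and red triangles the 2 Shn-RNAi puc libraries; the dotted line marks a level of 0. The groups are separate for every gene shown, with the widest gap at upd1, where 2 of the control libraries had no count. All 18 are genes called higher, so their separation is no added evidence. Over all tested genes the groups were separate on the higher side for 28.5%.

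Of 33 genes for the extracellular matrix, adhesion and invasion, 15 rose and none fell, with a median change of 0.56. They included integrin subunits, the receptors that tie epithelial and muscle cells to the basement membrane. The beta subunit gene mys went from 121, 141 and 87.4 CPM to 300 and 379 CPM (log2 change 1.54, SE 0.23, edgeR adjusted p = 0.0061). The alpha subunit gene ItgaPS4 went from 1.72, 1.44 and 1.59 CPM to 9.09 and 8.62 CPM (2.48, SE 0.29, adjusted p = 0.0025), and scb, another alpha subunit gene, rose by 1.6 (SE 0.23, adjusted p = 0.0058). The matrix metalloproteinase gene Mmp2 had 4.73, 4.92 and 2.15 CPM in control and 27.7 and 36.9 CPM in Shn-RNAi puc (3.02, SE 0.31, adjusted p = 0.0016). Its inhibitor gene Timp rose as well, by 1.72 (SE 0.26, adjusted p = 0.0062). For each of these genes the groups were separate, and the calls of Mmp2 and ItgaPS4 held in 7 of 7 refits and that of mys in 6. Mmp1 rose by 0.71 (adjusted p = 0.048), which held in 2 of 7 refits and not with RLE scaling (adjusted p = 0.053).

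Structural genes of the basement membrane were not called, and their groups overlapped. The collagen IV genes Col4a1 (-0.34) and vkg (-0.37), the laminin genes LanA (-0.33), LanB1 (0.35) and LanB2 (0.12) and the nidogen gene Ndg (-0.67) all missed the threshold. Control library 2 was high for Col4a1, at 41.2 CPM against 3.65 and 5.26 CPM in the other control libraries and 12.9 and 13.8 CPM in Shn-RNAi puc. Genes of the contractile and linker machinery did rise, among them the myosin II genes sqh (0.92, adjusted p = 0.014) and zip (0.98, adjusted p = 0.021), talin (rhea, 1.16), vinculin (Vinc, 0.75) and paxillin (Pax, 0.88). The matrix list had 8 members higher without control library 1, 9 without control library 3, 7 without Shn-RNAi puc library 1 and 3 without Shn-RNAi puc library 2. Septate junction genes, which seal the epithelium, had 4 of 15 higher and none lower. They were Nrg (1.97, SE 0.28, adjusted p = 0.005), which went from 17.3, 23.5 and 12.5 CPM to 55.5 and 84.6 CPM, Lac (1.19), mesh (1) and cora (0.9). This list had 1 member higher without control library 1, 2 without control library 3, 1 without Shn-RNAi puc library 1 and none without Shn-RNAi puc library 2.

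Markers of the cells in which the driver acts were mostly not called. Of 15 progenitor markers, 1 was higher (6.67%, against 8.76% over all genes) and none lower, with a median change of 0.37. The exception was sna, a transcription factor of the Snail family like esg, at 0.287, 0.664 and 0 CPM in control and 2.4 and 3.96 CPM in Shn-RNAi puc (log2 change 3.18, SE 0.7, edgeR adjusted p = 0.023; held in 2 of 7 refits). The stem and progenitor gene esg had 15.5, 18.9 and 13.6 CPM in control and 14.6 and 20.1 CPM in Shn-RNAi puc (0.11, SE 0.21, adjusted p = 0.77). Its groups overlapped, as did those of the stem cell marker Dl (3.22, 5.26 and 1.83 CPM against 3.51 and 5.51 CPM, adjusted p = 0.6). Sox21a, which drives progenitors to differentiate, had 7.66, 9.02 and 3.19 CPM in control and 11.8 and 16.9 CPM in Shn-RNAi puc, with no overlap but no call in edgeR (1.1, adjusted p = 0.084; DESeq2 adjusted p = 0.048). The list had no member higher without control library 1 or without either Shn-RNAi puc library, and 2 without control library 2. DESeq2 called 3 members higher. In edgeR 5 members were higher at an unadjusted p under 0.05, and 12 of 15 had a change above 0. The summed level of the list was 224, 272 and 193 CPM in control and 277 and 335 CPM in Shn-RNAi puc, without overlap.

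Cell cycle and replication genes had 3 of 55 members higher and none lower, a smaller share than over all tested genes. Their values nonetheless lay to one side: 52 of 55 members had a change above 0, with a median of 0.61, and the summed level was 394, 425 and 335 CPM in control and 509 and 568 CPM in Shn-RNAi puc. The called members were the centrosomal gene tacc (1.08, SE 0.13, edgeR adjusted p = 0.0029), the anillin gene scra (1.02, adjusted p = 0.046) and the topoisomerase gene Top2 (0.61, adjusted p = 0.041). The levels of tacc were 41.2, 45.2 and 43.6 CPM in control and 89.4 and 93.3 CPM in Shn-RNAi puc, and its call held in 7 of 7 refits. Those of scra and Top2 held in 2, and Top2 was not called by DESeq2 (adjusted p = 0.057). The list had 1 member higher without control library 1, without control library 3 or without either Shn-RNAi puc library.

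Enteroendocrine markers had 2 of 19 members higher and 2 lower. This is 10.5% in each direction, against 8.76% higher and 6.25% lower over all genes. The peptide hormone gene CCHa1 rose from 12.5, 13.3 and 11.5 CPM to 45 and 66.8 CPM (log2 change 2.17, SE 0.35, edgeR adjusted p = 0.0077; held in 6 of 7 refits), and the proneural gene sc, which starts enteroendocrine fate, rose by 1.87 (adjusted p = 0.018; held in 3). The hormone gene NPF fell from 53.4, 43.7 and 55.1 CPM to 28.8 and 25.4 CPM (-0.9, SE 0.22, adjusted p = 0.033; held in 3), and nrv3, a sodium pump subunit gene, fell by 1.71 (adjusted p = 0.012; held in 5). The pan-enteroendocrine gene pros, at 2.94, 4.26 and 2.71 CPM in control and 4.61 and 6.43 CPM in Shn-RNAi puc, was not called (0.73, adjusted p = 0.12). The hormone genes Tk (0.45), AstA (0.63), AstC (0.19) and Dh31 (0.48) were not called either. The list had no member higher without Shn-RNAi puc library 2, 1 each without control library 1, control library 3 and Shn-RNAi puc library 1, and no member lower without either Shn-RNAi puc library. Once the length trend was removed 5 members were higher.

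Lysozyme genes were far higher. Flies express these lysozymes in the gut, where they are thought to digest bacteria eaten with food. Of 6 tested members 4 rose and 1 fell, and the summed level of the family was 569, 465 and 444 CPM in control and 12400 and 12100 CPM in Shn-RNAi puc. LysD had 198, 181 and 164 CPM in control and 8770 and 8230 CPM in Shn-RNAi puc (log2 change 5.55, SE 0.53, edgeR adjusted p = 0.0012). LysB rose by 4.8 (SE 0.57, adjusted p = 0.0028), LysS by 5.39 (SE 0.52, adjusted p = 0.0012) and LysE by 3.67 (SE 0.3, adjusted p = 0.00078), and each call held in 7 of 7 refits. LysC, annotated as a pseudogene and so not counted in the family, went from 17.3, 16.6 and 13.7 CPM to 3450 and 3700 CPM (7.82, SE 0.39, adjusted p = 0.00022). These genes are of 1 family, and LysB, LysC, LysD and LysE are near-identical copies. Reads may therefore have been split between them, and their separate values are uncertain. LysX went the other way, from 176, 133 and 115 CPM to 44.2 and 67.3 CPM (-1.34, SE 0.28, adjusted p = 0.018), a call that held in 4 of 7 refits and not with the length trend taken out (adjusted p = 0.051).

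Antimicrobial and stress peptides were scarce in control. Drsl3, of the Drosomycin-like family, went from 5.01, 4.87 and 1.27 CPM to 115 and 128 CPM (log2 change 5.01, SE 0.58, edgeR adjusted p = 0.0026; held in 7 of 7 refits). Drsl2 went from 0.716, 1.33 and 0.478 CPM to 8.31 and 11.8 CPM (3.5, SE 0.84, adjusted p = 0.03; held in 3), and these were the 2 of 6 tested antimicrobial peptide genes that rose. Drosomycin itself, Drs, varied from 0 to 40.9 CPM within the control group and stood at 0.13 and 17.3 CPM in Shn-RNAi puc, so the groups overlapped entirely (adjusted p = 0.84). Of 4 tested Turandot genes, which encode stress-induced secreted peptides and respond to JAK-STAT, 3 rose. TotC had 0.215, 0.387 and 0 CPM in control and 39.3 and 24.1 CPM in Shn-RNAi puc (7.11, SE 0.93, adjusted p = 0.0037; held in 7 of 7). TotM rose by 4.02 (adjusted p = 0.0055; held in 6), and TotA, with no control count, was at least 9.56-fold higher (adjusted p = 0.037; held in 2).

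Among Toll and IMD genes 3 of 20 rose and 1 fell. Beside spz, the NF-kappaB genes Rel (0.88, edgeR adjusted p = 0.038) and Dif (0.57, adjusted p = 0.028) rose. Neither was called with the length trend taken out (adjusted p = 0.086 and 0.051), and each held in 2 of 7 refits. PGRP-SC1a, an amidase that degrades bacterial peptidoglycan and so dampens immune signalling, fell from 309, 200 and 165 CPM to 15.2 and 20.7 CPM (log2 change -3.65, SE 0.82, adjusted p = 0.024; held in 4 of 7). Its near-identical neighbour PGRP-SC1b, which is not in the list and with which it may share reads, had a change of -3.12 (adjusted p = 0.036). The list had 1 member higher without any 1 library of the groups compared, and no member lower without control library 1 or without either Shn-RNAi puc library.

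Digestive proteases fell. Of 27 trypsin and Jonah protease genes, the main secreted serine proteases of enterocytes, 13 fell and none rose, with a median change of -1.19. Their summed level was 292000, 236000 and 304000 CPM in control and 146000 and 119000 CPM in Shn-RNAi puc. Jon25Bi went from 4740, 3950 and 6500 CPM to 473 and 532 CPM (log2 change -3.33, SE 0.3, edgeR adjusted p = 0.00097), and Jon25Bii from 4610, 3840 and 5990 CPM to 658 and 392 CPM (-3.2, SE 0.34, adjusted p = 0.0019). Jon99Ci went from 1120, 892 and 1000 CPM to 293 and 250 CPM (-1.89, SE 0.21, adjusted p = 0.002). All 3 were lower in each Shn-RNAi puc library than in any control library, and all held in 7 of 7 refits. The abundant trypsin gene betaTry fell by 1.43 (SE 0.31, adjusted p = 0.022; held in 3). The list had 8 members lower without control library 1 and 3 without Shn-RNAi puc library 2, between 9 and 16 without each of the other libraries, and 12 with the length trend taken out.

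Carbohydrase genes changed in both directions, and lipid genes were called at about the share over all genes. Of 19 carbohydrase genes 4 rose and 3 fell. The maltase gene Mal-A1 rose from 1860, 1750 and 1290 CPM to 4750 and 4820 CPM (log2 change 1.55, SE 0.29, edgeR adjusted p = 0.014), Mal-A6 by 1.53, Mal-A8 by 2 and the amylase gene Amy-p by 1.67 (adjusted p = 0.024, 0.024 and 0.028). Mal-A3 (-1.41) and the lysosomal-type mannosidase genes LManIII (-2.7) and LManIV (-2.81) fell. The rises were all lost without control library 3 and without either Shn-RNAi puc library, and 2 were left without control library 1 or 2; the number of falls was 1 without Shn-RNAi puc library 1 and none without Shn-RNAi puc library 2. Of 20 genes of lipases and lipid handling 2 rose, the sterol transporter gene Npc1a (1.29, SE 0.16, adjusted p = 0.0032; held in 7 of 7) and the fatty acid synthase gene FASN2 (2.53, adjusted p = 0.021; held in 4). The lipid droplet gene Lsd-1 fell from 304, 293 and 360 CPM to 108 and 44 CPM (-2.07, SE 0.42, adjusted p = 0.018; held in 5).

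Nuclear genes of oxidative phosphorylation fell nearly as a block. Of 68 tested members 58 fell and none rose, and every member had a change below 0, from -2 to -0.2, with a median of -1. The respiratory chain in the inner mitochondrial membrane passes electrons from NADH to oxygen and pumps the protons that drive ATP synthase. The falls ran through each complex. Complex I had 28 of 33 members lower, complex III 9 of 10, complex IV 10 of 12 and ATP synthase 10 of 12, and the medians of these groups lay between -0.98 and -1.03. The summed level was 24800, 21500 and 27500 CPM in control and 14700 and 10500 CPM in Shn-RNAi puc. ATPsynG, a subunit of the ATP synthase membrane part, went from 350, 284 and 355 CPM to 169 and 133 CPM (log2 change -1.13, SE 0.19, edgeR adjusted p = 0.0091; held in 6 of 7 refits). COX5B, of complex IV, went from 387, 297 and 389 CPM to 189 and 159 CPM (-1.04, SE 0.19, adjusted p = 0.013; held in 4).

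The number of oxidative phosphorylation genes called rested on single libraries, while the direction of the list median did not. The count was 58 without control library 2 and 62 without either Shn-RNAi library, but 1 without control library 1, 10 without control library 3, 3 without Shn-RNAi puc library 1 and none without Shn-RNAi puc library 2. Over these refits the list median ran from -1.27 without Shn-RNAi puc library 1 to -0.79 without Shn-RNAi puc library 2. With the length trend taken out 57 members fell, with a median of -0.76. DESeq2 called 65 lower.

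The 13 protein genes of the mitochondrial genome itself gave 0 calls in edgeR. None had an unadjusted p under 0.05 in edgeR, and DESeq2 called none. Their changes ran from -0.34 to 0.08, with a median of -0.2. Their summed level was 25300, 26600 and 24200 CPM in control and 25800 and 24100 CPM in Shn-RNAi puc, so the groups overlapped. With the length trend taken out the median was 0.16.

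Other mitochondrial genes were lower to a smaller degree. Of 19 genes of the TCA cycle 5 fell and none rose, with a median change of -0.64. They were Mdh2 (-1.01), SdhD (-0.94), Fum1 (-0.85), Pdhb (-0.7) and ScsbetaG (-0.67). Without control library 1 or either Shn-RNAi puc library none was called, and without control library 3 it was 1. DESeq2 called 12 lower, as did edgeR with the length trend taken out. Of 73 mitochondrial ribosomal protein genes 19 fell and none rose, with a median of -0.66. One of them, mRpL4, went from 42.8, 39.8 and 47.3 CPM to 22.6 and 21.6 CPM (log2 change -0.97, SE 0.14, edgeR adjusted p = 0.0059). Leaving out control library 1 or control library 3 left 1 of these calls, leaving out control library 2 left 12, leaving out either Shn-RNAi puc library left none, and leaving out Shn-RNAi library 1 or 2 gave 47 and 45. Removing the length trend gave 22 falls and 1 rise, with a median of -0.38. Of 13 glycolysis genes 1 rose (7.69%, against 8.76% over all genes) and none fell. That gene was Ldh, the lactate dehydrogenase that regenerates NAD without oxygen, at 62.3, 65.5 and 70.4 CPM in control and 248 and 165 CPM in Shn-RNAi puc (log2 change 1.64, SE 0.22, adjusted p = 0.0041; held in 7 of 7 refits).

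Genes of oxidative stress defence had 9 of 17 members lower and 1 higher, with a median of -0.72. The peroxiredoxin gene Jafrac1 fell from 724, 599 and 782 CPM to 335 and 329 CPM (log2 change -1.08, SE 0.18, edgeR adjusted p = 0.0094), the mitochondrial superoxide dismutase gene Sod2 by 1.06 (adjusted p = 0.018) and the catalase gene Cat by 0.81 (adjusted p = 0.047). The member that rose was ref(2)P, an adaptor of selective autophagy (0.69, adjusted p = 0.027). No member was called lower without control library 1 or without either Shn-RNAi puc library, and 2 were without control library 3 and 6 without control library 2.

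Housekeeping sets gave few calls, in some at about the share over all tested genes. The proteasome had 0 of 32 members called in edgeR, 2 at an unadjusted p under 0.05 and 0 in DESeq2. Ribosome biogenesis had 0 of 17, with 0 at an unadjusted p under 0.05 and 0 in DESeq2. Of 83 cytosolic ribosomal protein genes 1 was called, RpS5b, a paralog known from the germline, which rose by 2.25 (edgeR adjusted p = 0.041; held in 1 of 7 refits). In edgeR 14 members were lower at an unadjusted p under 0.05, and DESeq2 called 14 lower. The 82 members other than RpS5b all had a change below 0, the list median was -0.35, and the 3 with the smallest p, RpL41, RpL24 and RpL31, had changes of -0.57, -0.55 and -0.58. With the length trend taken out the median was -0.08. Aminoacyl-tRNA synthetases had 1 of 35 lower, the mitochondrial MetRS-m (-0.88, adjusted p = 0.021), and 3 lower with the length trend taken out. V-ATPase subunits had 1 of 20 lower (5.00%, against 6.25% over all genes), VhaAC39-2 (-1.8, adjusted p = 0.0081), 4 lower in DESeq2 and 2 with the length trend taken out. Heat shock proteins and co-chaperones had 1 of 18 higher, the co-chaperone gene stv (0.97, adjusted p = 0.014; held in 4 of 7 refits), and 1 lower, the mitochondrial chaperone gene Hsp60A (-0.67, adjusted p = 0.032; held in 2), which is 5.56% in each direction and near the shares over all genes. Regional transcription factors, which pattern the gut along its length, had 0 of 13 called in edgeR, 1 at an unadjusted p under 0.05 and 0 in DESeq2. With the length trend taken out hth (-0.72, adjusted p = 0.032) and bab2 (-0.74, adjusted p = 0.014) were lower. None of the 8 reference genes was called in edgeR, with 3 at an unadjusted p under 0.05 and 2 called by DESeq2.

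**Figure D3:**
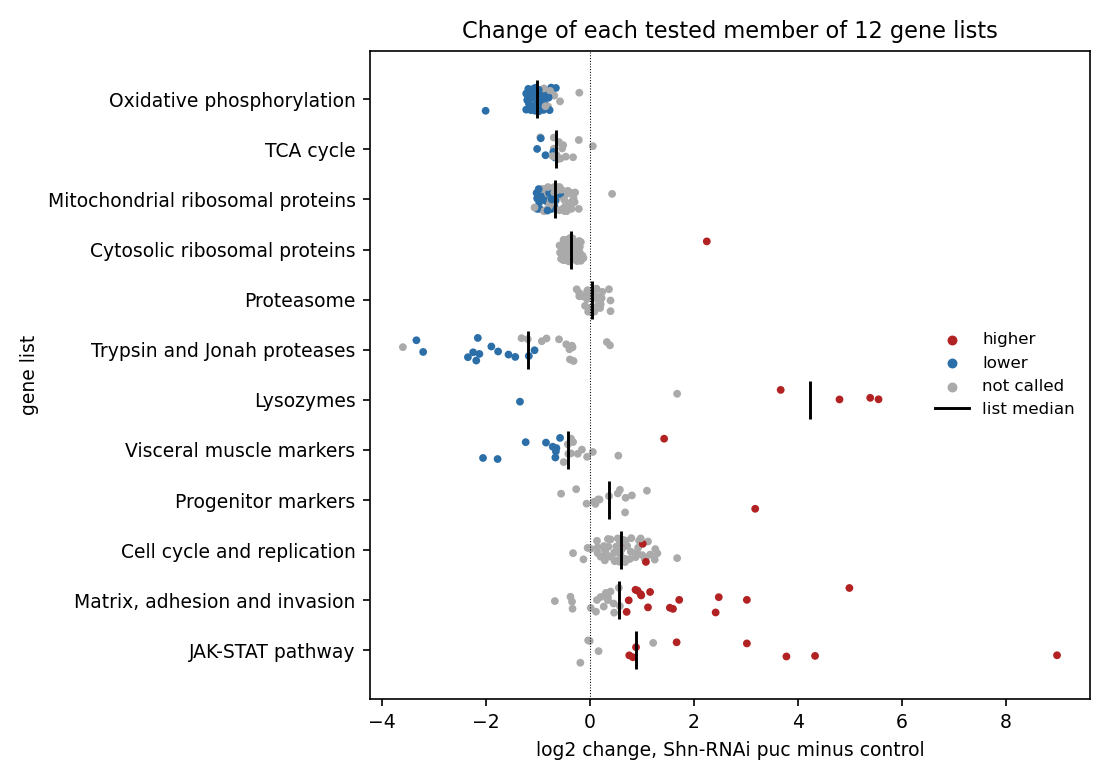
Each point is 1 tested member of 12 gene lists, placed by its log2 change (Shn-RNAi puc minus control); red and blue mark members called higher and lower, grey those not called, and the black bar is the list median. Oxidative phosphorylation genes form a narrow band around a median of -1, cytosolic ribosomal protein genes a band around -0.35, and the proteasome one around 0.03, whereas JAK-STAT, matrix and lysozyme genes spread far to the right.

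Other tissues could contribute RNA to the dissected gut. Visceral muscle, which wraps the midgut, was the clearest: of 21 muscle markers 9 were lower and 1 higher, with a median of -0.42, and the summed level was 5070, 5410 and 5280 CPM in control and 3590 and 3180 CPM in Shn-RNAi puc. The troponin C gene TpnC47D went from 82.2, 83.6 and 81.5 CPM to 21.6 and 18.3 CPM (log2 change -2.05, SE 0.17, edgeR adjusted p = 0.00074), and the actin gene Act87E from 290, 281 and 327 CPM to 93.3 and 82 CPM (-1.77, SE 0.18, adjusted p = 0.0016). Zasp52, a Z-disc and adhesion protein gene, rose from 67, 77.1 and 63.9 CPM to 203 and 172 CPM (1.43, SE 0.16, adjusted p = 0.002). These 3 calls held in 7 of 7 refits. The myosin heavy chain gene Mhc (-0.5, adjusted p = 0.21) was not called. The muscle list had 3 members lower without control library 1 or control library 3, 4 without control library 2, 3 without Shn-RNAi puc library 1 and 2 without Shn-RNAi puc library 2. Oxidative phosphorylation, matrix and muscle levels moved with the same groups, and the part of muscle in the other changes was not tested.

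Fat body markers had 0 of 7 tested members called in edgeR, with 2 at an unadjusted p under 0.05 and 2 lower in DESeq2. Of the larval serum protein genes, Lsp1gamma was tested (-0.34, adjusted p = 0.58), and Lsp1alpha, Lsp1beta and Lsp2 were not analysed here. The summed level of the list was 1370 to 1500 CPM in control and 1060 and 780 CPM in Shn-RNAi puc. Tracheal markers had 0 of 8 called, with 0 at an unadjusted p under 0.05 and 0 in DESeq2. Malpighian tubule markers had 1 of 11 higher (9.09%, against 8.76% over all genes) and 2 lower (18.2%, against 6.25%). Their summed levels were 488 to 549 CPM in control and 600 and 500 CPM in Shn-RNAi puc. Hemocyte markers had 1 of 10 higher, the hemolectin gene Hml, at 0.43, 0.775 and 0.796 CPM in control and 3.44 and 4.8 CPM in Shn-RNAi puc (log2 change 2.61, SE 0.39, edgeR adjusted p = 0.0061; held in 5 of 7 refits). Germline markers had 1 of 3 tested members lower, AGO3. Enterocyte markers, of the cell type that makes up most of the gut, had 3 of 16 higher and 3 lower, and summed levels of 76100 to 95400 CPM in control and 63700 and 56500 CPM in Shn-RNAi puc. The called enterocyte markers were the transcription factor nub, mesh and Amy-p on the higher side and the proteases betaTry, Jon65Ai and Jon99Ci on the lower. Removing the length trend gave 5 higher enterocyte markers.

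**Figure D4:**
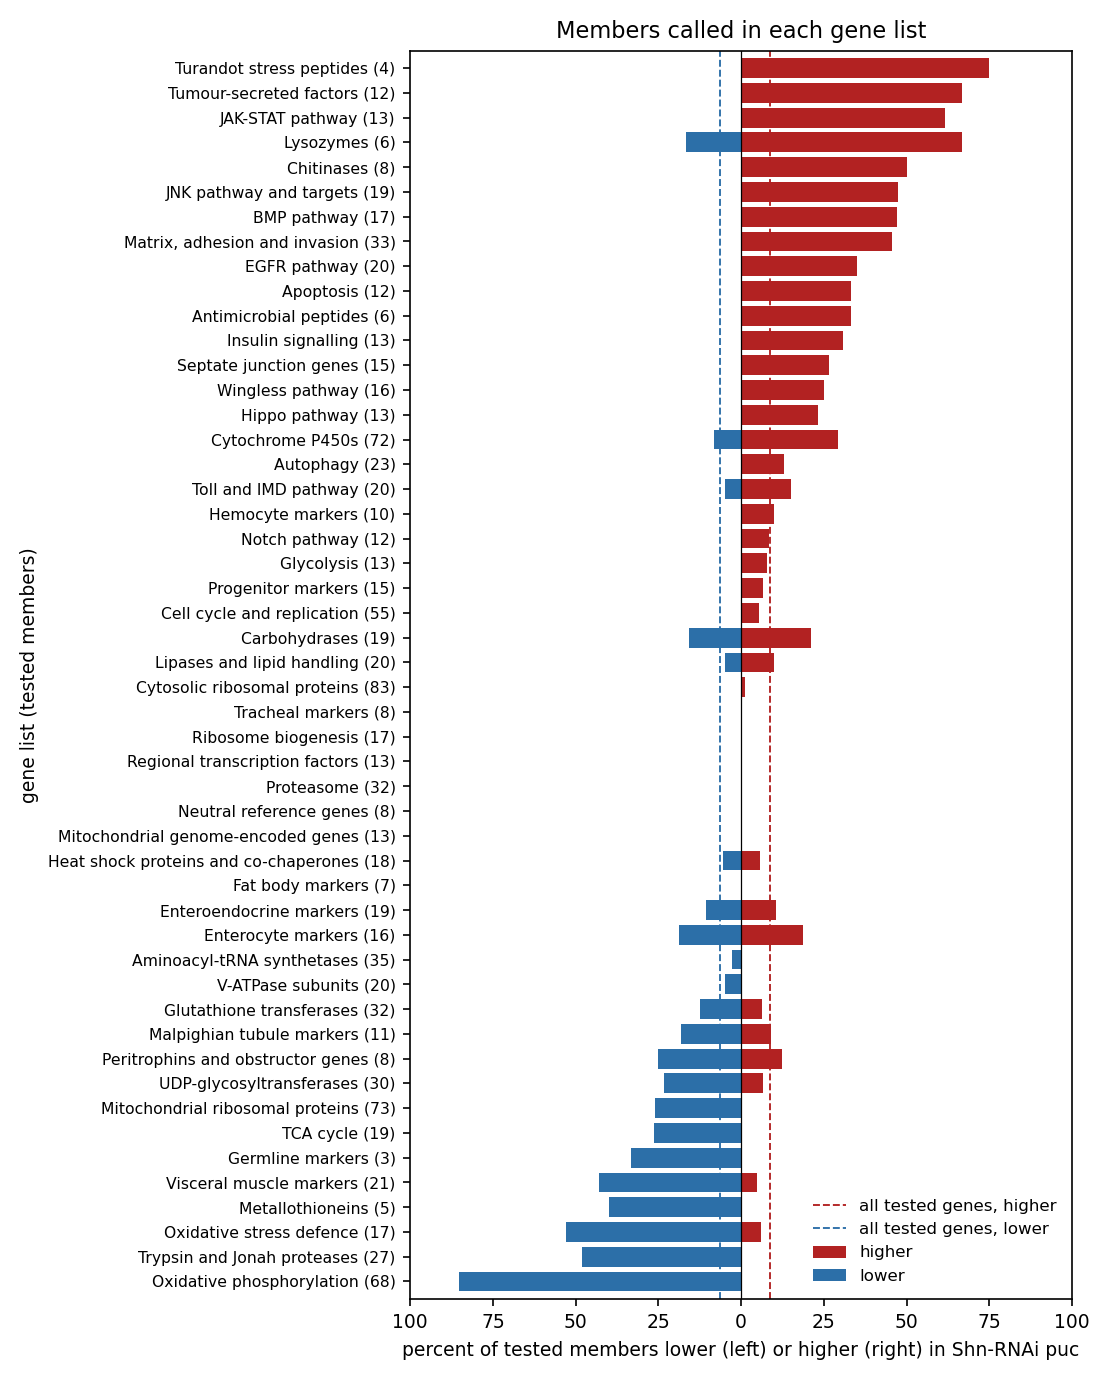
Bars give, for each gene list, the percent of its tested members called higher (right, red) and lower (left, blue) in Shn-RNAi puc against control, with the number tested in brackets. Dashed lines mark the shares over all tested genes, 8.76% higher and 6.25% lower. The JAK-STAT, JNK, BMP, tumour-secreted and matrix lists reach far past the right line, and the Notch list, at 8.33%, lies close to it. Oxidative phosphorylation, oxidative stress defence and proteases reach far past the left line. The lists differ in size from 3 to 83 members.

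Cytochrome P450 genes, whose enzymes oxidise hormones and foreign compounds, had 21 of 72 members higher and 6 lower. Cyp6a2, linked to insecticide resistance, went from 31.5, 27.9 and 19.7 CPM to 163 and 121 CPM (log2 change 2.43, SE 0.22, edgeR adjusted p = 0.00097), and Cyp28d1 fell from 84, 79.3 and 81.1 CPM to 23.6 and 21.8 CPM (-1.84, SE 0.2, adjusted p = 0.002). Both held in 7 of 7 refits. Cyp12d1-d had no count in any control library and stood at 67.4 and 52.8 CPM in Shn-RNAi puc, at least 898-fold higher against 3 counts over the control group. Its near-identical neighbour Cyp12d1-p fell from 51.4, 40.7 and 49.5 CPM to 21.8 and 24.1 CPM (-1.04, SE 0.16, adjusted p = 0.0061). Reads may pass between these copies. In the Shn-RNAi libraries Cyp12d1-d stood at 85 and 80.8 CPM. The family had 7 members higher without control library 1, 13 without control library 3, 5 without Shn-RNAi puc library 1 and 8 without Shn-RNAi puc library 2. Glutathione transferases had 2 of 32 higher (6.25%, against 8.76% over all genes) and 4 lower (12.5%, against 6.25%). GstE5 (1.43) and GstE1 (0.92) were higher, and GstT3 (-1.02), GstS1 (-0.92), GstE10 (-0.89) and GstE9 (-0.7) were lower. With the length trend taken out GstE9 (edgeR adjusted p = 0.19) and GstE10 (adjusted p = 0.083) were not called. One transferase was lower without control library 1 and none without either Shn-RNAi puc library.

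Cell death and clearance genes rose in part. Of 12 apoptosis genes 4 were higher and none lower: the death inducers hid (1.49, edgeR adjusted p = 0.022) and rpr (3.08, adjusted p = 0.033), the effector caspase gene Drice (0.65, adjusted p = 0.031) and the inhibitor Diap1. The hid levels were 2.87, 3.82 and 1.91 CPM in control and 6.11 and 10.2 CPM in Shn-RNAi puc, without overlap. No apoptosis gene was called without control library 1, control library 3 or either Shn-RNAi puc library, and 2 were without control library 2. Autophagy genes had 3 of 23 higher, led by the protease gene Atg4b, which went from 14.8, 14.6 and 12.7 CPM to 30.3 and 31.3 CPM (1.14, SE 0.13, adjusted p = 0.0025; held in 7 of 7 refits). The list had 1 member higher without control library 1, control library 3 or either Shn-RNAi puc library, and 5 once the length trend was removed.

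Several of the largest single changes fell outside these lists. The 10 largest rises among genes with at least 5 CPM and no overlap were Cyp12d1-d, CG32581, CG42704, upd1, obst-I, LysC, TotC, CG9360, CG15695 and LysD. The chitin-binding protein gene obst-I had 0, 0 and 0.0796 CPM in control and 17.7 and 7.56 CPM in Shn-RNAi puc, a ratio of 572 with a 95% counting interval of 102 to 22600. CG15695 went from 5.37, 7.25 and 3.03 CPM to 298 and 334 CPM (log2 change 5.9, SE 0.43, edgeR adjusted p = 0.00046). Under the same limits the 10 largest falls were CG17192, CG13160, PGRP-SC1a, CG32379, CG30047, CG5157, CG32751, Jon25Bi, CG6295 and Jon25Bii. CG17192, at 1280, 1060 and 1010 CPM in control and 37.4 and 51.6 CPM in Shn-RNAi puc, had the largest of these falls (-4.65, SE 0.43, adjusted p = 0.00097). CG6295 went from 3150, 2810 and 3200 CPM to 343 and 271 CPM (-3.31, SE 0.22, adjusted p = 0.0004). Of these 20 genes, all but CG30047 and PGRP-SC1a held in 7 of 7 refits.

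Against Shn-RNAi alone, which differs by the puc allele and by any strain background that came with it, 8 genes were higher in Shn-RNAi puc (0.0881% of those tested) and 5 lower (0.0551%). None of the pathway, matrix, mitochondrial or protease genes above was among them, and LysX was the only lysozyme. The JAK-STAT list had a median change of 0.02 and the JNK list one of 0.09 in this comparison, with no member called. The medians were -4.76 for Turandot, -0.94 for heat shock and 0.48 for antimicrobial peptide genes, again without a call. Summed Turandot levels were 232 and 1160 CPM in Shn-RNAi and 49.2 and 41.6 CPM in Shn-RNAi puc. With 2 libraries in each group, genes that were not called may still differ. The higher genes were CG32581, CG42704, CG9360, CG11893, CG7720, mwh, CG31436 and Ugt86Dd, and the lower ones CG7912, CG34451, LysX, Muc14A and Burs. CG9360, CG7720 and mwh were called in 7 of 7 refits. CG7912, CG34451 and Ugt86Dd were called in none, and without either Shn-RNAi puc library 4 genes were called, all higher. DESeq2 called 38 genes higher and 46 lower, and with the length trend taken out edgeR called 18 and 11, each of these including the 13.

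CG7720 had 61.1, 64.6 and 53.4 CPM in control, 14 and 19.2 CPM in Shn-RNAi and 422 and 378 CPM in Shn-RNAi puc (4.59 against Shn-RNAi, SE 0.24, edgeR adjusted p = 0.00046). The 2 RNAi groups lay on opposite sides of control. CG9360 had 1.22, 1.22 and 1.59 CPM in control, 0.56 and 1.69 CPM in Shn-RNAi and 215 and 105 CPM in Shn-RNAi puc (7.2, SE 0.54, adjusted p = 0.0022), and CG32581 and CG42704 had no count in any of the other 5 libraries. The wing-hair polarity gene mwh (3L 1200786 to 1232700) had 64.6, 56.9 and 68.3 CPM in control, 2.41 and 1.83 CPM in Shn-RNAi and 29.9 and 41.8 CPM in Shn-RNAi puc (4.06, SE 0.25, adjusted p = 0.00095). It was low in Shn-RNAi and intermediate in Shn-RNAi puc. Burs, which encodes a subunit of the hormone bursicon, had 4.71 and 14.2 CPM in Shn-RNAi and 0 and 0.0706 CPM in Shn-RNAi puc, against 2.79 to 4.54 CPM in control (-7.8 against Shn-RNAi, adjusted p = 0.03; called in 3 of 7 refits). The 13 genes lay on 3R (6), X (4) and 3L (3), which held 24.6%, 16.4% and 19.2% of the tested genes. None lay on the second chromosome, which held 17.8% (2L) and 20.6% (2R). A pattern by chromosome was not tested.

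**Figure D5:**
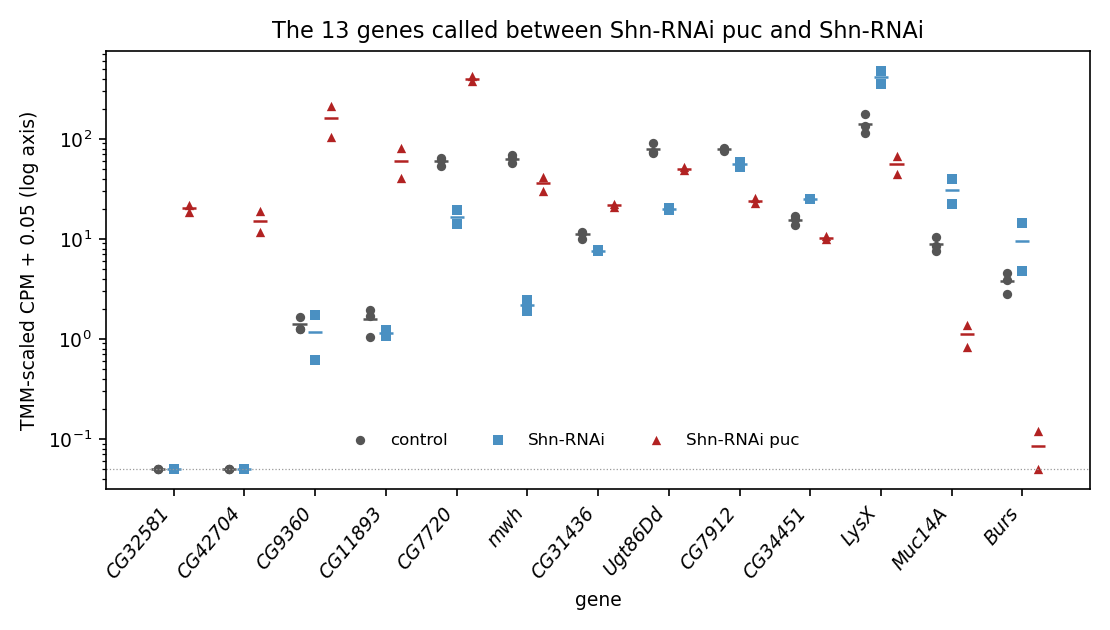
Points give the level of the 13 genes called between Shn-RNAi puc and Shn-RNAi in each of the 7 libraries, as TMM-scaled CPM plus 0.05 on a log axis, ordered by the log2 change, with short bars for group means and a dotted line at a level of 0. Grey circles are control, blue squares Shn-RNAi and red triangles Shn-RNAi puc. CG32581 and CG42704 had counts in Shn-RNAi puc alone, and mwh and Ugt86Dd were lowest in Shn-RNAi.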

How the data were processed

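RNA-seq was made from dissected adult midguts; libraries were prepared from total RNA with the TruSeq kit, per the labels' protocols. The authors deposited a table of unscaled whole-number counts by gene and library. Salmon 1.0.0, DESeq2 and the build BDGP6 are named, per the submitters' processing notes; their roles, and any use of strand, are not given in the sources used here. Columns of the table name groups, so each was tied to a group alone and is called a library. No per-sample column was left unused.

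Of 10902 symbols, 10869 (99.7%) matched the Ensembl release 115 annotation of BDGP6.54, 825 by an older name, and positions are from it. In R 4.3.3, edgeR 4.0.16 removed 1826 low genes with filterByExpr and tested 9076, which held at least 99.77% of each library's counts. Scaling was TMM. A quasi-likelihood model held all 7 libraries in 3 groups, leaving 4 residual degrees of freedom. The common biological coefficient of variation was 21.6%. Tests were two-sided, with Benjamini-Hochberg adjustment over all genes tested, and every adjusted p is from edgeR unless DESeq2 is named. The SE is the log2 change divided by the square root of edgeR's F, and is approximate. Folds against a group at 0 use 3 counts over that group; ratios on 1 to 3 counts have a 95% counting interval. These cover counting error only. The model was tested on simulated data.

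Named genes were the 10 largest called rises and falls whose groups did not overlap and of which the higher reached 5 CPM, the 4 smallest p of each list, all called members where a direction had 5 or fewer, a set of signalling and marker genes, and the genes called against Shn-RNAi. Other genes named were chosen after their values were seen. The comparison and the 45 lists were chosen with earlier results of these data known, and 5 more lists (chitinases, peritrophins, metallothioneins, UDP-glycosyltransferases and mitochondrial genome-encoded genes) after these values were seen. Some genes sit in several lists. Overlapping genes may share reads.

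Other settings tried were DESeq2 1.42.0, RLE scaling, scaling without the 50 most abundant genes, testing every gene, keeping genes with 1 CPM in 2 libraries, each library's length trend taken out, a fit of only the 2 groups compared, and each library left out in turn.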

Additional observations from a re-analysis of the deposited data

How the results depend on the processing

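No call of the genes named changed direction under any alternative run. A fit of only the 2 groups compared called 1194 genes higher and 1012 lower against control. With 1 library left out at a time the counts ran from 139 to 1033 higher and from 33 to 839 lower. Against Shn-RNAi, DESeq2 called 38 higher and 46 lower, the fit with the length trend taken out 18 and 11, and the refits without 1 library 4 to 7 higher and 0 to 9 lower. The cause was not tested. The other counts over all genes stayed within 1.5 times. Where a refit leaves 1 Shn-RNAi puc library, that library is assumed to vary like the other groups. No paired analysis was possible because the columns carry no replicate number that the labels tie to a sample.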

Other observations

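Among chitin-related genes, of 8 chitinase genes 4 were higher and none lower in Shn-RNAi puc. Cht4 stood at 48, 58.8 and 17 CPM in control and 799 and 947 CPM in Shn-RNAi puc (log2 change 4.4, edgeR adjusted p = 0.0027), and Cht9 at 93, 90.1 and 48.4 CPM against 723 and 429 CPM. The summed level of the family was 218, 207 and 160 CPM in control and 1580 and 1450 CPM in Shn-RNAi puc. Peritrophins bind the chitin of the peritrophic matrix, the sheet that lines the gut. Of 8 tested peritrophin and obstructor genes 1 was higher, obst-I, and 2 were lower, Peritrophin-15a and Peritrophin-15b. Peritrophin-15a fell from 1470, 1220 and 1670 CPM to 265 and 202 CPM (-2.64, adjusted p = 0.002). The groups did not overlap for Cht4, Cht9 or Peritrophin-15a. Metallothionein genes, whose products bind metal ions, had 2 of 5 members lower, among them MtnE, at 296, 228 and 300 CPM against 62 and 77.4 CPM (-1.98, adjusted p = 0.017). None of the metallothionein genes was called without control library 1 or without either Shn-RNAi puc library. UDP-glycosyltransferases, which attach sugars to small molecules, had 2 of 30 higher and 7 lower, with 1 lower without control library 1, control library 3 or Shn-RNAi puc library 1 and none without Shn-RNAi puc library 2.

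Some changes sat side by side in the genome. There were 6 runs of at least 4 neighbouring tested genes that were all called in the same direction. The longest, on 3R from 17126088 to 17135283 in BDGP6.54, held 7 genes that fell by 2.28 to 3.13 on the log2 scale (CG17477, CG31269, CG31265, CG17475, CG4053, CG31266 and CG31267). Another on 3R (29922216 to 29928766) held Jon99Ciii, Jon99Cii, Jon99Ci and CG15522, all lower. The chitinase genes Cht12, Cht4 and Cht9 lay with CG10527 on 2R (21063178 to 21072789), all higher. LysB, LysC, LysD and LysE lay together on 3L (1207371 to 1213406), within the annotated span of mwh (1200786 to 1232700). Neighbours that are close copies may share reads.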
